A study of Rattus norvegicus with 12 samples.

Results

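The regions described here carried peaks of 3 acetylation marks, H3K23ac, H3K27ac and H4K5ac, at 1 place in primary vascular smooth muscle cells of the rat. The peaks of all 12 deposited lists were merged where they overlapped by at least 1 bp, which gave 23333 regions. Of these, 999 (4.28%) were under 3000 bp, held at least 1 peak of each mark, and did not have H4K5ac in both SIANK libraries and neither NC library. These 999 are called co-marked regions below. Peaks of all 3 marks met at 1182 regions in all, of which 56 were left out for length and a further 127 for the H4K5ac pattern. The regions were chosen by the presence of peaks in these 12 lists, so counts of libraries per region are descriptions and carry no test.

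Each mark was profiled by CUT&Tag, in which an antibody tethers a transposase that cuts and tags nearby DNA, with 2 libraries for each of 2 conditions, which the titles call NC and SIANK. The labels do not spell out either condition or say whether the libraries came from separate cultures or animals. P-values therefore reflect the spread of these libraries alone, and that spread may be technical. The lists held 10720 to 17141 peaks for H3K23ac, 2644 to 15413 for H3K27ac and 100 to 1711 for H4K5ac, and sequencing depth is unknown. IgG libraries were not analysed here. Positions are those of the deposited lists, whose genome build is not given in the sources used here, so no gene, promoter or sequence could be read for them, and the smooth muscle label could not be set against marker genes.

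Acetylation neutralises the charge of histone tails and is read by bromodomain proteins, and it is a general feature of open chromatin at promoters and enhancers. H3K27ac, on lysine 27 of histone H3, is laid down mainly by the acetyltransferases p300 and CBP and is the usual mark of active enhancers and promoters. H3K23ac, on lysine 23 of the same histone, is another acetylation of the H3 tail. H4K5ac, on lysine 5 of histone H4, is found on newly made histones and at active genes. Vascular smooth muscle cells form the contractile layer of arteries.

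A single H4K5ac list supplied most of the co-marked regions. H4K5ac peaks lay in 69 of the 999 regions in NC library 1, 249 in NC library 2, 169 in SIANK library 1 and 930 in SIANK library 2. In 707 regions (70.8%, exact 95% binomial interval 67.8 to 73.6) SIANK library 2 was the only H4K5ac library with a peak. The like share was 72.2% over the 1575 merged regions with H4K5ac that met the same limits on length and on the H4K5ac pattern, and 64% over all 1834 merged regions with H4K5ac. The 999 regions are part of both sets, and the rule removes a pattern of 2 libraries that the 1834 still hold. H4K5ac was found in only 1 library at 772 regions (77.3%), beside 80.3% of the 1575 and 71% of the 1834. NC library 2 alone had it in 34 regions and SIANK library 1 alone in 31. It was found in 2 libraries at 89 regions, in 3 at 85 and in all 4 at 53 (5.31%, interval 4.00 to 6.88, beside 4.25% of the 1575 and 3.71% of the 1834). Both number 2 libraries and neither number 1 library had it at 81 (8.11%, beside 6.86% and 6.05%). These H4K5ac shares lay near those of the 1575, and nothing is read from them about the co-marked regions.

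Without the H4K5ac list of SIANK library 2 the same rule gave 262 regions, and without SIANK library 2 of all marks it gave 234. Of the 999 regions, 707 had no other H4K5ac peak. A further 31, with H4K5ac in SIANK library 1 alone, are then read by the rule as the excluded pattern. Without SIANK library 1 of all marks the rule gave 258 regions. There the 707 regions have H4K5ac in the lone SIANK library and no NC library, which the rule then reads as the excluded pattern. Intervals on counts of regions, here and below, cover counting error over regions only and not the spread between libraries.

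H3K23ac was the most regular of the 3 marks at these regions. It was listed in 787 and 800 of them in NC libraries 1 and 2, and in 810 and 969 in SIANK libraries 1 and 2. All 4 H3K23ac libraries had a peak at 647 regions (64.8%, interval 61.7 to 67.7), where 35.1% of the 21083 merged regions with H3K23ac had one in all 4. The 21083 include regions of any length and regions without the other marks. Among the 13311 regions under 3000 bp with H3K23ac, H3K27ac and no H4K5ac, the share was 45.2%. Among the 127 regions left out for the H4K5ac pattern it was 55.9%. At 84 regions (8.41%) H3K23ac rested on 1 library, which was SIANK library 2 in 66 cases. That share was 34.9% of the 21083, 16.7% of the 13311 and 7.87% of the 127. H3K23ac was in both number 2 libraries and neither number 1 library at 27 regions (2.70%, beside 3.08% of the 21083 and 3.93% of the 13311).

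H3K27ac followed the replicate number. It was listed in 173 and 907 of the 999 regions in NC libraries 1 and 2, and in 301 and 953 in SIANK libraries 1 and 2. Both number 2 libraries and neither number 1 library had it at 565 regions (56.6%), beside 44.9% of the 16864 merged regions with H3K27ac. That share was 49.3% of the 13311 regions without H4K5ac named above, and 57.5% of the 127 left out. All 4 H3K27ac libraries had the mark at 159 regions (15.9%, interval 13.7 to 18.3), beside 13.1% of all merged regions with the mark and 13.4% of the 13311. Without NC library 1 of all marks the rule gave 987 regions, and the share of these with H3K27ac in all remaining libraries was 29.2%. The mark rested on 1 library at 125 regions (12.5%, beside 28.1% of the 16864, 23.1% of the 13311 and 17.3% of the 127). The number 1 lists of H3K27ac were far shorter than the number 2 lists in both conditions, and the part of list length in this pattern was not tested.

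**Figure D1:**
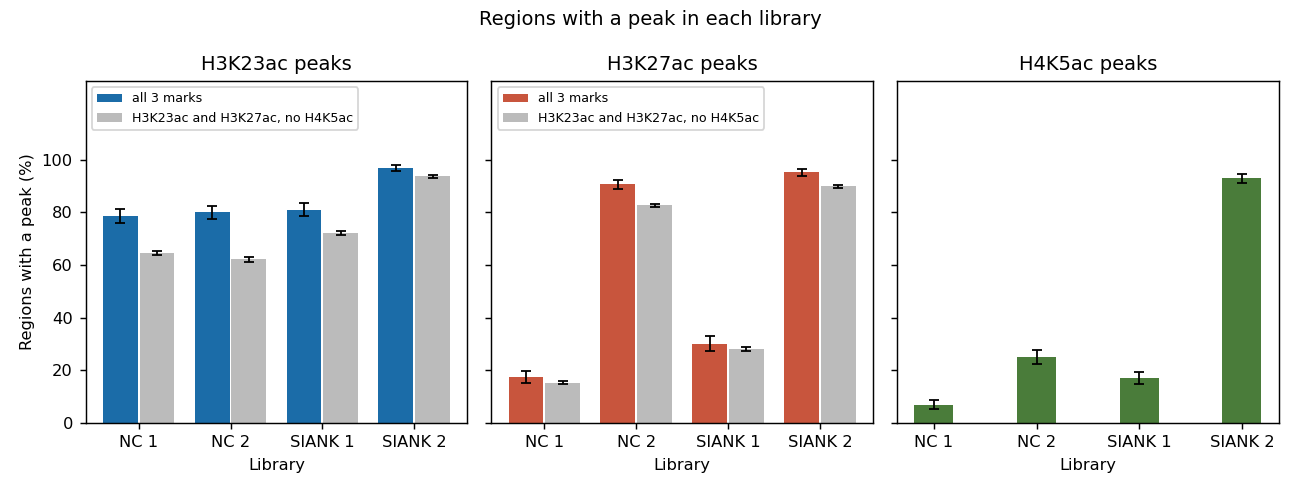
Percent of regions with a peak in each library, for the 999 co-marked regions (coloured) and the 13311 regions under 3000 bp with H3K23ac and H3K27ac and no H4K5ac (grey). Bars are exact 95% binomial intervals over regions; the H4K5ac panel shows SIANK library 2 at 93.1% and the other 3 libraries between 6.91 and 24.9%.

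Within 1 condition and number, all 3 marks met at very unequal numbers of these regions. NC 1 had all 3 at 15 regions, NC 2 at 193, SIANK 1 at 42 and SIANK 2 at 871. The SIANK lists together held all 3 marks at 917 regions and the NC lists at 214, of which 180 were common to both conditions. The whole H4K5ac lists held 100 (NC 1), 371 (NC 2), 468 (SIANK 1) and 1711 peaks (SIANK 2). The part of list length in these numbers was not tested. At 48 regions neither condition had all 3 marks by itself, so the meeting of marks there exists only in the pooled lists. H4K5ac was missing from both NC lists at 738 of the 999 regions (73.9%), beside 75.9% of the 1575 regions with H4K5ac under the same limits. Of 706 regions with all 3 marks in SIANK lists and no H4K5ac in NC lists, 605 (85.7%) had both H3K23ac and H3K27ac in at least 1 NC library each. The like share over regions without H4K5ac was not computed, so nothing particular to these regions is read from it. At the 13311 regions without H4K5ac, H3K23ac was in NC libraries 1 and 2 at 64.6% and 62.2%, and H3K27ac at 15.3% and 82.7%. The median co-marked region had peaks in 7 of the 12 libraries, 43 regions had the minimum of 3, and 10 had peaks in all 12.

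The co-marked regions had a median length of 1239 bp (quartiles 907.5 and 1678). Merging joins overlapping peaks, so some overlap of marks is set by the rule. All 3 marks shared at least 1 bp at 991 regions (99.2%), and the stretch they shared had a median of 434 bp (quartiles 351 and 593.5). H3K23ac peaks of any library covered a median of 97.5% of a region, H3K27ac 88.4% and H4K5ac 43.0%. That order, H3K23ac wider than H3K27ac and H3K27ac wider than H4K5ac, held in 581 regions. H3K23ac covered the most bases in 641 regions, H3K27ac in 302 and H4K5ac in 61, with ties counted for each mark. Of the 1430 H4K5ac peaks in co-marked regions, 1128 (78.9%, interval 76.7 to 81.0) lay wholly inside H3K23ac peaks and 1051 (73.5%) wholly inside H3K27ac peaks. The H3 marks were found in more lists per region than H4K5ac, and coverage is taken over all lists of a mark.

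Midpoints of H4K5ac and H3 peaks were compared as a description. Most H4K5ac peaks lay inside H3 peaks, and a peak inside a longer one has its midpoint within a limited distance of the centre. In SIANK library 2 the median peak length at co-marked regions was 474.5 bp for H4K5ac and 1026 bp for H3K23ac. The offsets were not set against random placement, so no preference for the centre is read from them. Compared within SIANK number 2, at 881 regions with 1 peak of each, the midpoint of the H4K5ac peak lay a median of 127 bp from the midpoint of the H3K23ac peak. It fell in the central 20% of the H3K23ac peak at 345 of these regions (39.2%) and in its central 60% at 764 (86.7%), and it lay outside the peak at 25. Within NC number 2 the median offset was 119 bp over 191 regions, within SIANK number 1 it was 136 bp over 124 and within NC number 1 it was 126 bp over 56. The central 20% held 39.3%, 40.3% and 33.9% of midpoints in these 3 sets. Median offsets from H3K27ac midpoints lay between 109.5 bp (223 regions, NC number 2) and 122.5 bp (867 regions, SIANK number 2).

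Regions with H4K5ac in more libraries had wider H4K5ac. Taken over all its lists, H4K5ac covered a median of 39.8% of a region where SIANK library 2 alone had it, 51.9% where 2 libraries had it, 70.5% where 3 did and 77.6% where all 4 did. The peak of SIANK library 2 itself had a median length of 433, 615, 720 and 992.5 bp in these classes. Where 1 other library alone had H4K5ac, it covered a median of 31.7% of a region. H3K23ac was in all 4 of its libraries at 65.2% (interval 61.6 to 68.7) of the SIANK library 2 class, 68.5% (57.8 to 78.0) of the regions with 2 H4K5ac libraries, 65.9% (54.8 to 75.8) of those with 3 and 60.4% (46.0 to 73.5) of those with 4. For H3K27ac the same shares were 16.7%, 10.1%, 17.6% and 20.8%. The intervals overlapped between all of these classes for both marks.

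**Figure D2:**
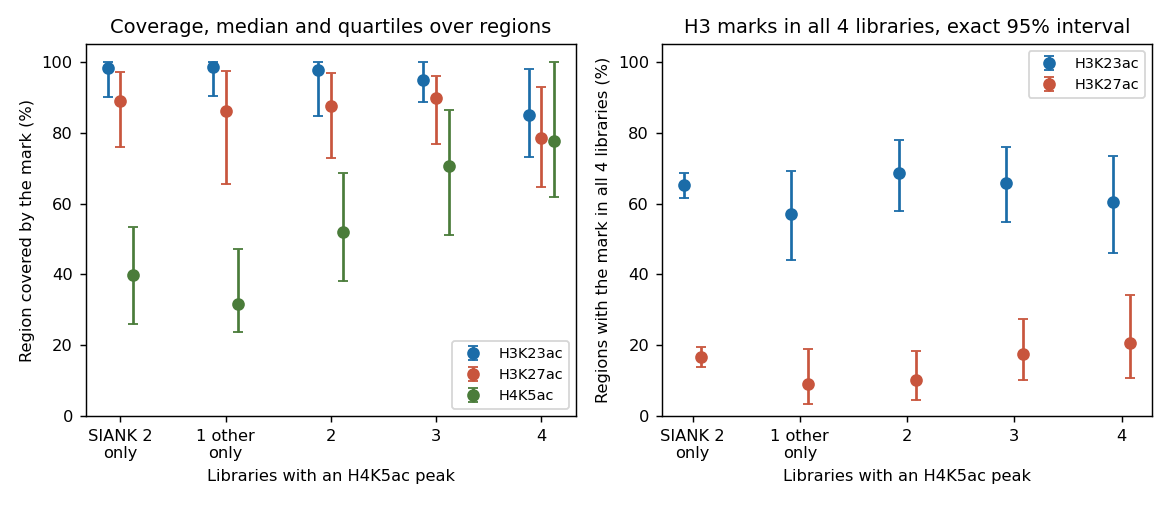
Co-marked regions by the libraries with an H4K5ac peak (707 in SIANK library 2 only, 65 in 1 other library only, 89 in 2, 85 in 3, 53 in 4). Left, percent of the region covered by each mark, as median and quartiles. H4K5ac is at 31.7% for 1 other library only and goes from 39.8 to 77.6% over the rest. Right, percent of regions with H3K23ac or H3K27ac in all 4 libraries with exact 95% intervals, where H3K23ac stays between 56.9 and 68.5%.

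At the 53 regions with H4K5ac in all 4 libraries, H4K5ac taken over all its lists came near the H3 marks in width. It covered the most bases at 19 of them, against 20 for H3K23ac and 14 for H3K27ac, while in the SIANK library 2 class it did so at 17 of 707. H3K23ac covered a median of 84.9% and H3K27ac 78.5% of the 53 regions. These were chosen for H4K5ac in all 4 lists, while H3K27ac was in all 4 at 20.8% of them. By library, median H4K5ac peaks were 425, 634.5, 644 and 992.5 bp in NC 1, NC 2, SIANK 1 and SIANK 2. Median H3K23ac peaks were 796, 916, 998 and 1014 bp, so the 2 marks were near in SIANK library 2 only. In 3 of the 53, chosen as those with the fewest libraries of the other marks, H4K5ac was present throughout while the H3 marks were sparse. Chromosome 3, positions 110069734 to 110072097, carried H4K5ac of 658, 1476, 1609 and 2364 bp (NC 1, NC 2, SIANK 1 and SIANK 2, the order used below), with H3K23ac of 794 bp in NC library 1 and H3K27ac of 1025 bp in SIANK library 2. Chromosome 2, positions 18820751 to 18822512, carried H4K5ac of 584, 699, 942 and 1762 bp and single peaks of H3K23ac (618 bp, SIANK library 2) and H3K27ac (504 bp, NC library 2). Chromosome 1, positions 277897560 to 277898575, carried H4K5ac of 679, 604, 829 and 996 bp, H3K23ac in both SIANK libraries and H3K27ac in SIANK library 2 only.

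Peaks of all 12 libraries met at 10 regions, which lay on 9 chromosomes. The largest sum of H4K5ac peak lengths was on chromosome X from 112392287 to 112394541 (2255 bp). H4K5ac there was a single peak of 2088 bp in SIANK library 2 and a pair of peaks in each other library, and H3K23ac was a pair of peaks in 3 of its 4 libraries. This region had co-marked neighbours from 112386587 to 112388954, with peaks in 11 libraries, and from 112389111 to 112390592, with peaks in 10. The latter 2 lay 156 bp apart, the smallest gap between co-marked regions, and H4K5ac was in all 4 libraries at each of the 3.

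Other regions of this set showed simpler shapes. On chromosome 2 from 157445427 to 157447519 the H3K23ac peaks were 1572, 2013, 1723 and 1874 bp, the H3K27ac peaks 952, 2093, 1237 and 1844 bp and the H4K5ac peaks 522, 1619, 1194 and 1624 bp. NC library 1 had the shortest peak of all 3 marks at this place. On chromosome 17 from 80733601 to 80735329 the 12 peaks were closer in length, with H3K23ac at 1411, 1429, 1631 and 1475 bp, H3K27ac at 1398, 1653, 1551 and 1496 bp and H4K5ac at 805, 1082, 1159 and 1129 bp. On chromosome 4 from 77446367 to 77448874 each of the 3 marks formed a pair of blocks in most libraries, and only the H3K23ac peak of SIANK library 2 (2508 bp) spanned the whole region.

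The shortest region of the 10 lay on chromosome 1 from 61398088 to 61399069 (982 bp). Its H3K23ac peaks were 611, 636, 611 and 952 bp, its H3K27ac peaks 596, 619, 629 and 751 bp and its H4K5ac peaks 390, 313, 477 and 611 bp. SIANK library 2 had the longest peak of each mark there. The other 5 were on chromosome 6 from 2044046 to 2045773, chromosome 2 from 179970926 to 179972286, chromosome 9 from 113467089 to 113468746, chromosome 10 from 108340219 to 108341433 and chromosome 3 from 122326021 to 122327657. In these 5 the H4K5ac peaks ranged from 312 to 1095 bp, and the longest H4K5ac peak came from SIANK library 2 in all but the second, where NC library 2 had it (923 against 877 bp).

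**Figure D3:**
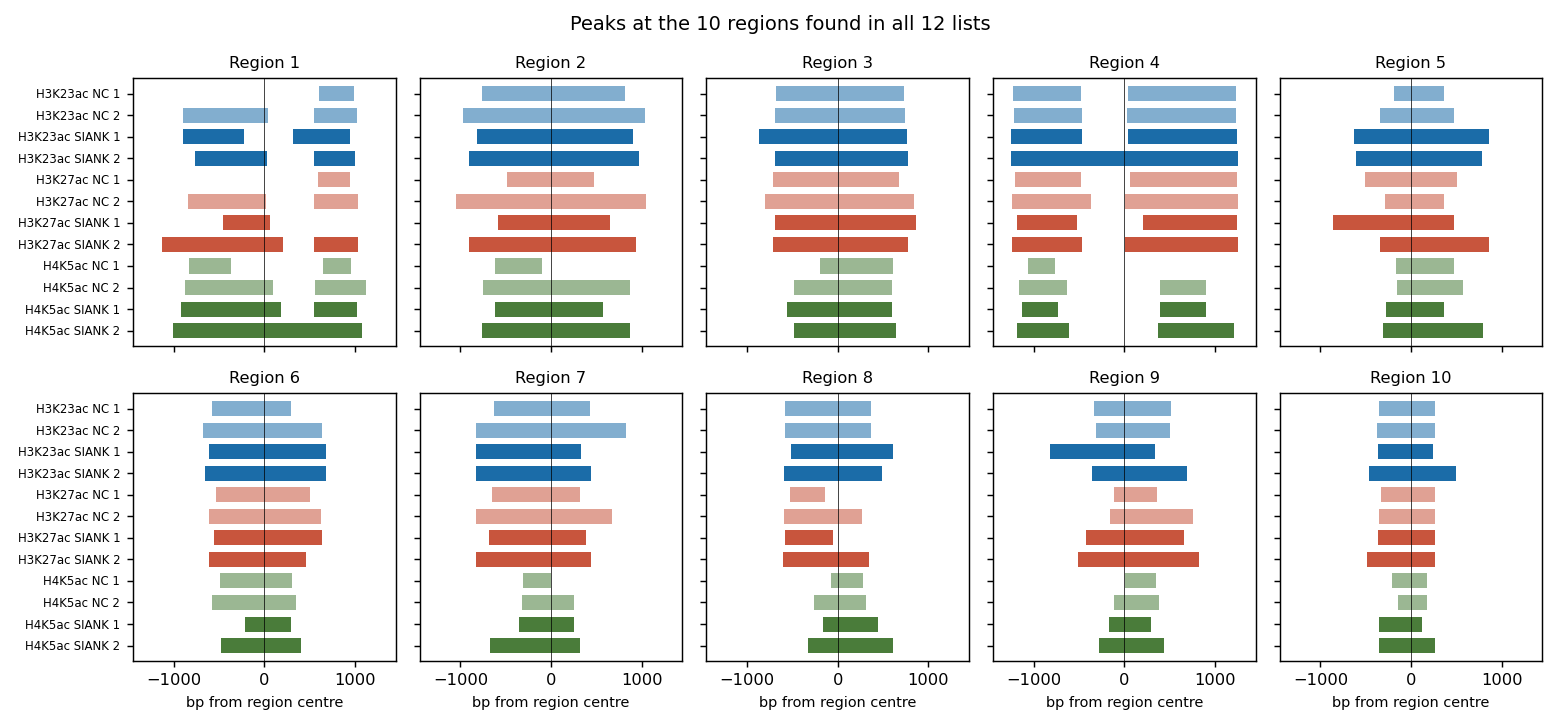
Extent of every peak, in bp from the centre of the region, at the 10 regions with peaks in all 12 libraries, in order of summed H4K5ac peak length (region 1 is that on chromosome X, 2255 bp long, and region 10 that of 982 bp on chromosome 1). Blue is H3K23ac, red H3K27ac and green H4K5ac, with paler bars for NC; the green bars lie within or beside the H3 bars, and regions 1 and 4 hold paired blocks.

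Co-marked regions were set beside the 13311 regions under 3000 bp that had H3K23ac and H3K27ac and no H4K5ac in any library. They were somewhat longer, with a median of 1239 against 1123 bp. Each H3K23ac library had a peak at a larger share of them: 78.8% against 64.6% in NC library 1, 80.1% against 62.2% in NC library 2, 81.1% against 72.3% in SIANK library 1 and 97.0% against 93.7% in SIANK library 2. For H3K27ac the shares were 17.3% against 15.3%, 90.8% against 82.7%, 30.1% against 27.9% and 95.4% against 90.0%. So the co-marked shares were higher in all 8 lists of the H3 marks. For H3K27ac the intervals overlapped in NC library 1 (15.0 to 19.8 against 14.7 to 15.9) and SIANK library 1 (27.3 to 33.1 against 27.1 to 28.7). Region length differed between the sets and enters the rule, so this comparison is a description with no test.

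H3K23ac was also compared at equal region length, where its share was higher at co-marked regions in all 6 length bins and the intervals were separate in 3 of them. H3K23ac was in all 4 libraries at 31.4% of co-marked regions of 500 to 999 bp (92 of 293, interval 26.1 to 37.1), against 18.3% without H4K5ac. At 1000 to 1499 bp the shares were 72.5% (258 of 356, interval 67.5 to 77.0) and 51.6%, and at 1500 to 1999 bp 86.5% (154 of 178, interval 80.6 to 91.2) and 73.9%. The intervals overlapped in the other bins, with 4.55% (1 of 22) against 0.876% under 500 bp, 92.9% (interval 85.8 to 97.1) against 85.3% at 2000 to 2499 bp, and 98.1% (89.7 to 99.95) against 89.5% at 2500 to 2999 bp. For H3K27ac the shares in the 6 bins, from the shortest regions to the longest, were 4.55% against 0.701%, 4.78% against 4.30%, 17.4% against 13.4%, 21.9% against 23.4%, 25.5% against 30.3% and 34.6% against 34.4%. The H3K27ac intervals overlapped in all 6. H4K5ac in these regions came mostly from SIANK library 2, and whether a property of that list takes part in the difference was not tested.

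**Figure D4:**
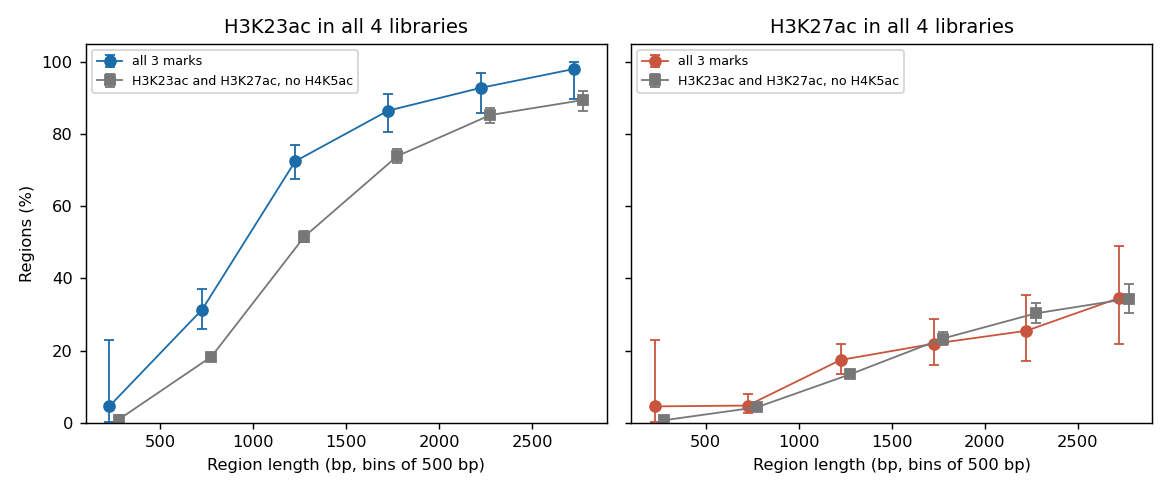
Percent of regions with H3K23ac (left) or H3K27ac (right) in all 4 libraries, by region length in bins of 500 bp, for co-marked regions (circles) and regions with both H3 marks and no H4K5ac (squares). Bars are exact 95% binomial intervals; at 1000 to 1499 bp the H3K23ac shares are 72.5 and 51.6%, while the H3K27ac shares are 17.4 and 13.4%.

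Few co-marked regions had either H3 mark in both libraries of 1 condition and neither of the other. H3K23ac was in both SIANK and neither NC library at 52 regions (5.21%, interval 3.91 to 6.77), beside 7.37% of merged regions with H3K23ac. That share was 8.46% of the 13311 regions without H4K5ac and 8.66% of the 127 left out. The reverse pattern occurred at 4 regions (0.400%, interval 0.109 to 1.02), beside 0.0949%, which lay just below that interval. It was found at 0.0601% of the 13311 and 0.787% of the 127. H3K27ac was in both SIANK and neither NC library at 4 regions (0.400%, interval 0.109 to 1.02), beside 0.854%, and in both NC and neither SIANK library at none, beside 0.0593%. Among the 13311 these 2 shares were 0.939% and 0.0601%, and none of the 127 had either pattern. A count of 0 among 999 allows a share of up to 0.369% (exact 95% interval). H4K5ac was in both NC libraries and neither SIANK library at none of them, where 2 of the 1834 merged regions with H4K5ac (0.109%) had that pattern.

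Of the 52 regions with H3K23ac in SIANK only, that with the largest summed H3K23ac length lay on chromosome 6 from 127358407 to 127360504. It had H3K23ac of 1877 and 2098 bp in SIANK libraries 1 and 2, H3K27ac of 568 bp (NC 1), 1899 bp (NC 2) and 1697 bp (SIANK 2), and H4K5ac of 606 bp in SIANK library 2. It was followed by the region on chromosome 10 from 17001558 to 17003377, with peaks in SIANK lists only and H4K5ac of 1079 bp in SIANK library 2. Next came chromosome 14, positions 99975269 to 99976675, and chromosome 7, positions 120609077 to 120610155. Both carried H3K27ac in both number 2 libraries and H4K5ac in SIANK library 2. The fifth, at 103222353 to 103223409 of chromosome 7, also had H4K5ac in NC library 2 (392 bp).

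The 4 regions with H3K23ac in NC libraries only did not share an H4K5ac pattern. On chromosome 6 from 7347205 to 7348509 the NC peaks of H3K23ac were 1220 and 491 bp, with H4K5ac in SIANK library 2. On chromosome 11 from 64904519 to 64905355 they were 415 and 484 bp with H4K5ac in SIANK library 1, and on chromosome 5 from 162902520 to 162903125 they were 324 and 386 bp with H4K5ac in NC library 2. On chromosome 2 from 198589692 to 198590244 they were 318 and 375 bp, and H4K5ac was in all 4 libraries there.

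The 4 regions with H3K27ac in SIANK libraries only lay on chromosome 13 from 81962441 to 81963554, chromosome 1 from 80231266 to 80232379, chromosome 5 from 166777420 to 166778616 and chromosome 15 from 45421978 to 45422490. In SIANK libraries 1 and 2 their H3K27ac peaks were 980 and 483, 383 and 652, 388 and 625, and 415 and 513 bp. At that on chromosome 13 the 3 marks shared no base, with H3K23ac in SIANK library 2 only (461 bp) and H4K5ac in NC library 2 only (403 bp). That on chromosome 5 had H4K5ac in all 4 libraries (328, 339, 554 and 974 bp), and that on chromosome 15 had H3K23ac in all 4 (443, 441, 489 and 489 bp).

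H3K23ac peaks at co-marked regions were longer in both SIANK libraries than in both NC libraries. At the 601 co-marked regions with exactly 1 peak in each H3K23ac library, the geometric mean length was 887 and 936 bp in NC libraries 1 and 2 and 997 and 1197 bp in SIANK libraries 1 and 2. The groups did not overlap, and SIANK library 2 stood highest. The SIANK over NC ratio was 1.20 (log2 0.26, SE 0.14, n = 2 libraries each), 1.12 within number 1 and 1.28 within number 2. With the regions chosen anew, the log2 ratio was 0.45 without SIANK library 1 of all marks (173 regions) and 0.14 without SIANK library 2 (159 regions). These are other sets than the 601. The exact two-sided permutation test over libraries gave p = 0.333, the smallest that 2 against 2 libraries allow, and p = 0.667 after Benjamini-Hochberg adjustment over 5 tests. At single regions, both SIANK peaks were longer than both NC peaks at 239 of the 601 (39.8%), beside 37.3% of all 6187 merged regions with 1 peak in each library. Both were shorter at 11 (1.83%), beside 2.09%. These shares lay near those of all regions.

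H3K27ac peak lengths overlapped between conditions. At the 154 co-marked regions with exactly 1 peak in each H3K27ac library they averaged 644 bp (NC 1), 1184 bp (NC 2), 868 bp (SIANK 1) and 1226 bp (SIANK 2), with both number 2 libraries above both number 1 libraries. The ratio was 1.18 (log2 0.24, SE 0.51, n = 2 libraries each), 1.35 within number 1 and 1.04 within number 2 (exact two-sided permutation p = 0.667, adjusted p = 0.667). Leaving out a library of all marks also changed the set of regions. The log2 ratio was −0.32 without NC library 1 (277 regions) and 0.71 without NC library 2 (143 regions). It was 0.48 without SIANK library 1 (40 regions) and 0.02 without SIANK library 2 (39 regions). Both SIANK peaks were longer than both NC peaks at 20 of the 154 (12.99%), beside 13.9% of all such merged regions, and both were shorter at 1 (0.649%), beside 1.46%. Over H3K23ac and H3K27ac together the ratio was 1.19 (log2 0.25, SE 0.26). Exchanging labels within each mark gave an exact permutation p of 0.333 (adjusted 0.667), where 0.0556 is the smallest possible. That log2 ratio was −0.05 without NC library 1 and 0.50 without NC library 2. Without SIANK libraries 1 and 2 it was 0.47 and 0.08. The regions were chosen anew for each of these values too.

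The condition difference in length was set against that of regions without H4K5ac. For H3K23ac the log2 SIANK over NC ratio at co-marked regions minus that at 5333 regions without H4K5ac was −0.01 (SE 0.07), 0.08 within number 1 and −0.10 within number 2 (exact permutation p = 0.667). For H3K27ac, against 1641 regions, it was 0.02 (SE 0.10; exact permutation p = 0.667). Both adjusted p were 0.667. With 2 libraries a group the smallest p of these 2 permutation tests is 0.333, so no difference of any size could pass 0.05. H4K5ac lengths are given without a test, since the rule uses the H4K5ac contrast. At 47 regions with 1 peak in each H4K5ac library they averaged 464 bp (NC 1), 682 bp (NC 2), 687 bp (SIANK 1) and 1013 bp (SIANK 2). Both SIANK peaks were longer than both NC peaks at 24 (51.1%), beside 50% of the 62 such merged regions. None was shorter in both, likewise 0% of the 62.

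**Figure D5:**
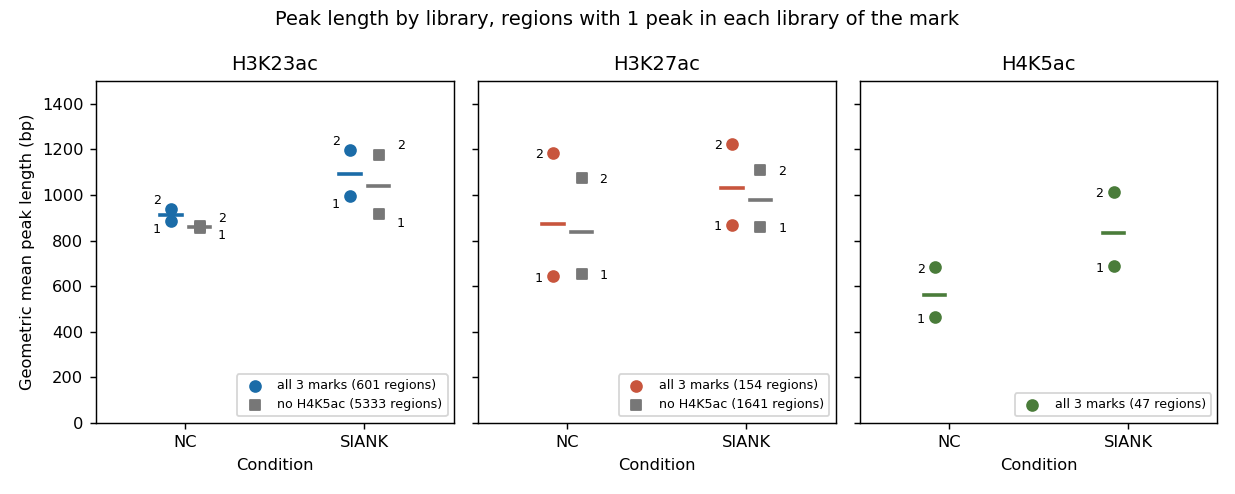
Geometric mean peak length in bp by library, with the replicate number beside each point and a bar at the mean of each condition on the log scale. Circles are co-marked regions and squares regions with both H3 marks and no H4K5ac; H3K23ac goes from 887 and 936 bp in NC to 997 and 1197 bp in SIANK, and the H3K27ac points split by number.

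H4K5ac was listed in NC libraries only at 34 co-marked regions (3.40%, beside 4.44% of the 1575 regions with H4K5ac under the same limits), in each case in NC library 2 alone. The widest of these H4K5ac peaks was 619 bp, on chromosome 12 from 48016390 to 48017470, where H3K23ac peaks were 566, 641, 513 and 704 bp and H3K27ac was in both number 2 libraries. The next were on chromosome 12 from 38045202 to 38047076 (537 bp), chromosome 5 from 114117117 to 114118741 (525 bp), chromosome 16 from 19248790 to 19250324 (478 bp) and chromosome 19 from 49624369 to 49625878 (476 bp). The first 4 had H3K23ac in all 4 libraries and all 5 had H3K27ac in both number 2 libraries and neither number 1 library.

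At 8 co-marked regions the 3 marks shared no base and were joined only through overlapping peaks of 2 marks. The longest lay on chromosome 17 from 89922868 to 89925235 and from 57020998 to 57023347, each with an H4K5ac peak of 333 or 335 bp in SIANK library 2 beside H3K23ac in all 4 libraries. Those next in length were at 197853985 to 197855520 of chromosome 2 and at 255318542 to 255320062 and 163348639 to 163350020 of chromosome 1. They had H4K5ac of 359, 330 and 313 bp in a single library.

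The length limit fell within a continuous range. The longest co-marked regions were 2995, 2985 and 2978 bp, on chromosome 4 from 123133321, chromosome 3 from 113511759 and chromosome 2 from 187872160, and each had H4K5ac in SIANK library 2 only (471, 540 and 522 bp). The shortest regions left out for length were 3026, 3026 and 3029 bp, on chromosomes 6, 17 and 14, with H4K5ac again in SIANK library 2 only (360, 649 and 435 bp). At the other end were regions of 348, 387 and 389 bp on chromosomes 9, X and 2, with peaks in 3, 4 and 3 libraries. At each of these 3 regions H4K5ac and H3K23ac rested on 1 library each. The 127 regions left out for H4K5ac in both SIANK libraries had a median length of 1019 bp, H3K23ac in all 4 libraries at 55.9% (interval 46.8 to 64.7) and H3K27ac in all 4 at 12.6%.

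Co-marked regions were found on chromosomes 1 to 20 and X. Chromosome 1 held the most, 113 of 2599 merged regions (4.35%). The share of merged regions that were co-marked was highest on chromosomes 11 (39 of 660, 5.91%, interval 4.24 to 7.99) and 6 (66 of 1169, 5.65%, 4.39 to 7.13). It was lowest, apart from chromosome Y with 0 of 5, on chromosomes 7 (44 of 1479, 2.97%, 2.17 to 3.97), 10 (58 of 1938, 2.99%, 2.28 to 3.85) and 12 (26 of 821, 3.17%, 2.08 to 4.61). Chromosomes 10 and 12 had the densest merged regions, 17.2 and 15.6 per Mb up to the last region. The X chromosome held 11.

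Distances to other acetylated regions are given as a description. The nearest merged region of any kind lay a median of 12157 bp away (quartiles 3680.5 and 33937), against 8615 bp for regions with both H3 marks and no H4K5ac. It was within 10 kb at 46.2% (interval 43.1 to 49.4) against 52.9%, and within 1 kb at 9.61% (7.85 to 11.6) against 18.0%. Distances within the H4K5ac classes had medians between 11257 and 12538 bp. The nearest other co-marked region lay a median of 403766 bp away, and 62 of the 999 had one within 10 kb. The closest pairs after that on chromosome X were on chromosome 6, from 75618994 to 75620941 and from 75621264 to 75623916, which lay 322 bp apart, and on chromosome 2, from 187870178 to 187871822 and from 187872160 to 187875137, which lay 337 bp apart. These 4 regions had H4K5ac in SIANK library 2 only.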

How the data were processed

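The authors deposited 1 peak list per library, with chromosome, start, end and length in bp per the file headers, and no score, height or read count. Lengths equal end minus start plus 1, so positions count from 1. BWA and deepTools are named, without roles, per the submitters' processing notes. For the peak caller, its threshold and the build, the entry is: not given in the sources used here. The lists differ in length by library, and a region counts as carrying a mark wherever any list has a peak, so longer lists weigh more. Groups and replicate numbers came from sample titles.

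Peaks were merged in Python 3.11.15 (numpy 2.4.6, scipy 1.17.1, matplotlib 3.10.9), and bedtools 2.31.1 gave the same 23333 regions. The rule for co-marked regions, its comparators and the named regions (ranked by number of libraries, summed peak length, region length or distance) were chosen with earlier results of these data known. Peak lengths were compared as means of log2 length per library, by exchanging condition labels over libraries (exact permutation, two-sided). Intervals are Clopper-Pearson. Counting was tested on simulated lists. Alternatives changed merging distance, length limit, lists, rule and libraries. A table of genes on another assembly was not used.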

Additional observations from a re-analysis of the deposited data

How the results depend on the processing

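Of 153 values under alternatives, 107 kept their direction, lay within 1.5 times the reported count or lay within the interval of the reported percent; 36 moved beyond that and 10 changed sign. No alternative gave a permutation p under 0.125, and the design could not reach 0.05.

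The number of co-marked regions was 69 with lists of equal length, 388 with only peaks no shorter than their mark's median and 190 with at least 2 libraries of each mark. It was 234 to 987 when NC 1, NC 2, SIANK 1 or SIANK 2 of all marks was left out (987, 859, 258 and 234), and 262 without H4K5ac SIANK library 2, an alternative chosen after seeing the data. Without SIANK library 2, 707 regions lose their only H4K5ac peak, and the 31 with H4K5ac in SIANK library 1 alone meet the excluded pattern. Without SIANK library 1, the same 707 meet the excluded pattern, which by construction leaves them out.

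The percent sharing at least 1 bp was 100 with equal lists and with at least 2 libraries, and 98.99 to 99.6 with a library left out. H3K23ac in all libraries went to 59.5% under 2000 bp, 91.3% with equal lists, 51.8% with long peaks and 77.4% with at least 2 libraries, and to 64.1 to 73.5% with a library left out. H3K27ac in all libraries went to 13.7%, 11.6%, 9.54% and 18.4% under the same settings, and to 14.9 to 29.2% with a library left out. H4K5ac in only 1 library went to 59.4% with equal lists, 80.2% with long peaks, 68.6% with the 127 regions kept, 0% with at least 2 libraries by construction, and 14.3 to 92.2% with a library left out. The 14.3% was without SIANK library 1, where the rule by construction drops the 707 regions with H4K5ac in SIANK library 2 only. Without SIANK library 2 the share was 42.7%, where the 707 and the 31 regions named above drop out by construction. H4K5ac peaks wholly inside H3K23ac went to 82.4% with equal lists, 83.8% with long peaks and 70.7 to 79.3% with a library left out. Regions within 10 kb of another went to 40.8% with merging within 1000 bp, 52.2% with equal lists, 33.0% with long peaks and 44.0 to 46.6% with a library left out.

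For H3K23ac length, leaving out a library gave log2 ratios of 0.14 to 0.45; for H3K27ac −0.32 to 0.71; for both −0.049 to 0.50. Co-marked regions minus regions without H4K5ac changed sign for H3K23ac under 2000 bp (0.0029), with at least 2 libraries (0.021) and between −0.057 and 0.051 with a library left out, and for H3K27ac with equal lists (−0.14, over 8 regions) and between −0.091 and 0.14 with a library left out. The cause was not tested. Each setting with a library left out chose its regions anew, so those ratios are over other regions than the main ones. With replicate number as a block the log2 ratios are the same by construction (0.26, 0.24, 0.25, −0.01 and 0.02), with exact permutation p of 0.5, 0.5, 0.125, 1 and 0.5. The numbers are labels only. Deviations of same-numbered libraries correlated across regions at 0.07 for H3K23ac (601 regions) and 0.63 for H3K27ac (154), and the block changed no call. Depth is unknown, so a missing peak cannot be told from an undetected one.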
